A study of Mus musculus with 12 samples.

Results

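Among the transcripts of mouse bone marrow-derived macrophages (BMDMs), 76 protein-coding genes were at least 2 times as abundant with LPS and 10 µM cpTLR-i as with LPS alone and as without any treatment. The RNA-seq experiment held 12 libraries in 4 groups of 3, namely untreated control cells, cells given LPS alone for 2 h, and cells pretreated with 1 µM or 10 µM cpTLR-i and then given LPS for the same 2 h. All cells were wild type (WT) and had grown out of bone marrow over 7 days with M-CSF at 20 ng/ml. LPS is the bacterial ligand of TLR4, and cpTLR-i is a peptide that joins a cell-penetrating sequence to a stretch of the TIR domain of TIRAP, the adaptor of TLR4. Control libraries are labelled 0 h and all others 2 h, so treatment and time in culture cannot be told apart in comparisons with control. None of the 12 libraries came from cells given peptide without LPS. An effect of the peptide alone therefore cannot be told apart from an effect on the response to LPS.

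The members were chosen by measured values, namely the mean FPKM (fragments per kilobase of transcript, scaled to the total fragments of the library) of the 3 libraries of a group. A protein-coding gene was selected where its mean with 10 µM was at least 2 FPKM, at least 2 times the LPS mean and at least 2 times the control mean. Of the 15567 protein-coding genes among the 23959 genes measured, 8811 reached 2 FPKM with 10 µM and 98 met all limits. Genes whose symbols mark chemokines, interleukins, the TNF families or several families of transcription factors, phosphatases, transporters and others were to be left out. This took out 22 genes, mostly transcription factors, phosphatases, kinases and transporters (among them Fos, Egr2, Nr4a1, Klf2, Dusp1 and Atf4) with Tnfsf14 and Tnfrsf12a of the TNF families, and left 76. All 76 passed the filter on low values, also when the 10 µM libraries were ignored. The differences of 10 µM from LPS and from control are therefore given as a description only, with no test. The 1 µM libraries took no part in the choice, whereas the LPS and control libraries they are compared with did.

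LPS binding to TLR4 recruits TIRAP and MyD88, and the resulting NF-κB and MAP kinase signaling turns on cytokine genes within hours. Macrophages also make growth factors, extracellular proteases and their inhibitors, through which they act on the matrix and on neighbouring cells, and they adjust transcription factors and protective enzymes when stressed.

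Promoters are shown for some members that match a loose pattern of the AP-1 site, which Fos and Jun family proteins bind. This pattern was more frequent in the members than in tested genes. RefSeq promoters of build GRCm38.p6 (250 bases before to 50 after a start) were found for 55 of the 76 members. The letters TGANTCA, which read the same way on both strands, were present for 9 of these 55 genes (16.4%) and for 6.20% of 8828 tested genes. The usual AP-1 site has C or G in the middle, whereas N allows any base. The Hilpda match, a single site found from both of its 2 listed starts, reads TGAATCA, and the Emp1 match at -25 reads TGATTCA. Genes with the stricter form were not counted separately. The 9 genes were Agpat4, Cgref1, Emp1, Hilpda, Lmna, P2ry10b, Ptpre, Sphk1 and Srxn1. A match at any listed start of a gene counted, and some of these starts lie inside the gene. Lmna (chr3:88481148-88509932) had 2 listed starts, and the window with the match lies within the gene. In Ptpre (chr7:135537824-135686294) the window with the match, chr7:135605578-135605877, does too. Which starts these cells use was not measured. The matches, in capitals, began at positions -102 and -45 from the start in Srxn1 (chr2:152105274-152105573, plus strand), -145 and -25 in Emp1 (chr6:135362681-135362980, plus strand), 10 in Hilpda (chr6:29272238-29272537, plus strand) and 39 in Lmna (chr3:88503303-88503602, minus strand). The capitals in Gdf15 (chr8:70632046-70632345, minus strand) mark an E-box, CACGTG, at position -83.
Srxn1: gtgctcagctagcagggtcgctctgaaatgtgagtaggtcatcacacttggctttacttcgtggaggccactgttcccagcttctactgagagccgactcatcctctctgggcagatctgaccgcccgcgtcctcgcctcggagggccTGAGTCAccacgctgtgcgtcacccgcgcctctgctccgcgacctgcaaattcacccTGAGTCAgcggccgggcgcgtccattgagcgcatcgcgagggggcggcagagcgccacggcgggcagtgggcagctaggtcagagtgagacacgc
Emp1: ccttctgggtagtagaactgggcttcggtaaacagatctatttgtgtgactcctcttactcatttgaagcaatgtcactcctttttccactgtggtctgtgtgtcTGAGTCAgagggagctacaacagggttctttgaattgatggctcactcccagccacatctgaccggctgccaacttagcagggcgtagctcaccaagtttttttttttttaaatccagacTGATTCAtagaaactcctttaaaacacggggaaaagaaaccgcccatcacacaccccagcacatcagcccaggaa
Hilpda: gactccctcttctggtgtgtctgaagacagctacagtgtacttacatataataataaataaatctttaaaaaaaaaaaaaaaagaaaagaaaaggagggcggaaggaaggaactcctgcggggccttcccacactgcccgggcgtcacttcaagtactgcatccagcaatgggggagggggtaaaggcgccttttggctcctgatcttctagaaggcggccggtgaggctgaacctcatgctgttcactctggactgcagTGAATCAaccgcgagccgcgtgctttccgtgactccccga
Lmna: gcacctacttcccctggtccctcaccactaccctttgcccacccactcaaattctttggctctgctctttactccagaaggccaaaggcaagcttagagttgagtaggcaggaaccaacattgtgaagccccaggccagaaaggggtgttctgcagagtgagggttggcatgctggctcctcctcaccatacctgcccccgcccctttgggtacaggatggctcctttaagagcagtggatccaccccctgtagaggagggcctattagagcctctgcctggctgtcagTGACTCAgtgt
Gdf15: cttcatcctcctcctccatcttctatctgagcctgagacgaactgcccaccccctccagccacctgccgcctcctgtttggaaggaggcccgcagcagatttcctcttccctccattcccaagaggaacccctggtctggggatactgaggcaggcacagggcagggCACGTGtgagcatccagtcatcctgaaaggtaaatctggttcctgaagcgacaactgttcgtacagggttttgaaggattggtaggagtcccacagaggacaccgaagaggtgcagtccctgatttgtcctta

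Other sites searched on both strands differed less between the members and the tested genes. The E-box was found for 11 members (20.0%) and 12.2% of tested genes, and the antioxidant response element, TGACNNNGC, for 14 members (25.5%) and 17.2%. The cAMP response element, TGACGTCA, was present for 3 members (Dio2, Ppan and Trmt61a; 5.45% against 3.70%), and its core, TGACG, for 24 members (43.6% against 36.8%). The EGR site, GCGTGGGCG, was found for 1 member, Sh2b2 (1.82% against 1.40%). The CARE, TGATGNAAT, the SMAD site, GTCTAGAC, the CArG box and the heat shock element were found for 0 members and for 0.498%, 0.295%, 1.51% and 0.578% of tested genes. The core lies within the full cAMP response element, and an AP-1 match can overlap the antioxidant response element. These matches describe letters in a fixed window and no binding was measured.

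Libraries of a group were alike, with a lowest correlation of 0.995, whereas the groups stood apart. FPKM summed to 403473 to 422014 in a library. A control library had 10867 to 10905 genes reaching 1 FPKM, an LPS library 10144 to 10169, a library with 1 µM 10247 to 10285 and a library with 10 µM 10559 to 10605. The median ratio of a library to the geometric mean of all libraries was lowest with LPS alone (0.879 to 0.885), followed by 1 µM (0.918 to 0.932), 10 µM (1.017 to 1.071) and control (1.179 to 1.192), and comparisons with control moved with this scaling as given below. Whether replicate libraries stem from different mice or culture dishes is not given in the sources used here, and p-values therefore reflect library-to-library spread that could be purely technical. The depth behind a value is unknown. Tests were run with limma on log2(FPKM + 0.25) over the 12315 genes that reached 0.5 FPKM in 3 or more libraries. A call required a change over 1.5-fold and a p under 0.05 after Benjamini-Hochberg adjustment. Fold changes on this scale understate those of genes with little signal. In bulk RNA, fewer cells of a type and less RNA per cell cannot be told apart.

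Across the 76 members the mean with 10 µM was 2.00 to 13.3 times the larger of the LPS and control means, with a median of 2.55. It reached 3 times in 26 members, 4 times in 12 and 5 times in 4, namely Vasn, Gdf15, Hbegf and Flrt3. The mean level with 10 µM was lowest in Iglon5, at 2.09 FPKM, and had a median of 14.3. Every 10 µM library lay above every LPS and control library in all 76 members, against 13.4% of tested genes, a count that the choice itself favours. The members just inside the limits were Tatdn2, Sntb2, Srfbp1, Lrrc32 and Kcnk13, with smaller ratios of 2.00, 2.01, 2.02, 2.03 and 2.05. The genes just outside were Mthfd2 (2.00, just short of the limit before rounding), Micall1 (1.99), Dot1l (1.99), Irf4 (1.97) and Bcl2 (1.97).

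**Figure D1:**
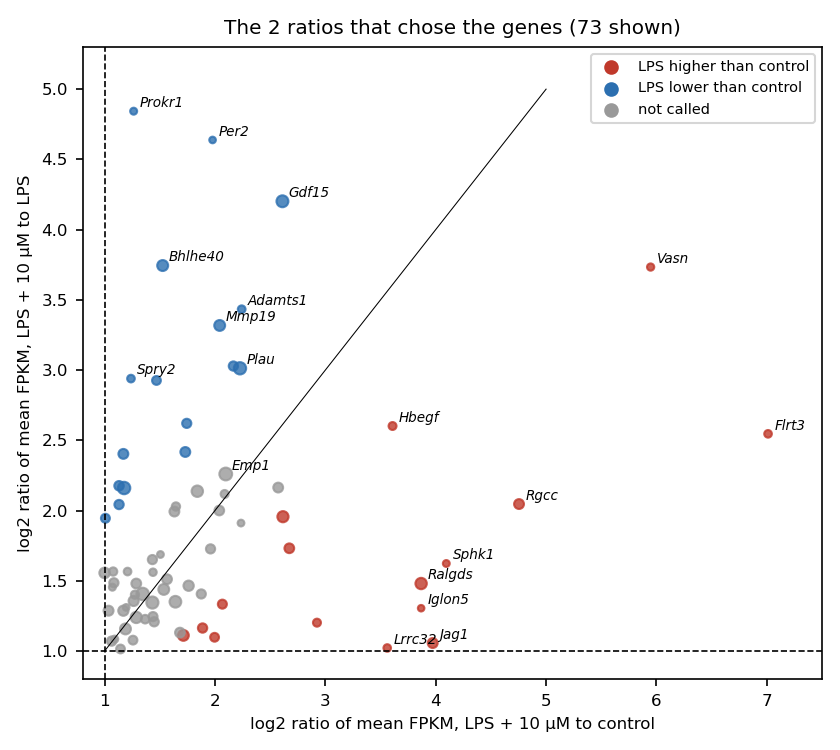
Log2 ratio of mean FPKM with LPS + 10 µM to control (x axis) and to LPS (y axis) for 73 of the 76 genes, with dashed lines at the 2-fold limits, a thin line where both ratios are equal, and larger points for higher FPKM with 10 µM. Colour gives the limma call of LPS against control: 16 genes higher with LPS (red) lie below the thin line, 17 lower (blue) lie above it, and 40 (grey) were not called.

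Without the peptide, members differed from control in both directions. The choice used the LPS and control means, so the calls between these groups describe the members and are no test of them. LPS alone raised 17 of the 76 (22.4%, against 11.0% of tested genes) and lowered 18 (23.7%, against 35.8%) relative to control (limma). Their median log2 fold change was -0.02, whereas that of all tested genes was -0.39. This shift of all genes bears on the split: with libraries scaled to a common median ratio, 25 members were higher and 9 lower, and with quantile normalization 26 were higher and 12 lower, so that more members were higher than lower under both. With no fold minimum, 26 members were higher (34.2%, against 17.9% of tested genes) and 31 lower (40.8%, against 68.5%). The members raised by LPS included Jag1, Rgcc, Ralgds, Flrt3 and Lrrc32. Those lowered by LPS included Bhlhe40, Prokr1, Gdf15, Mmp19, Gclc and Spry2.

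**Figure D2:**
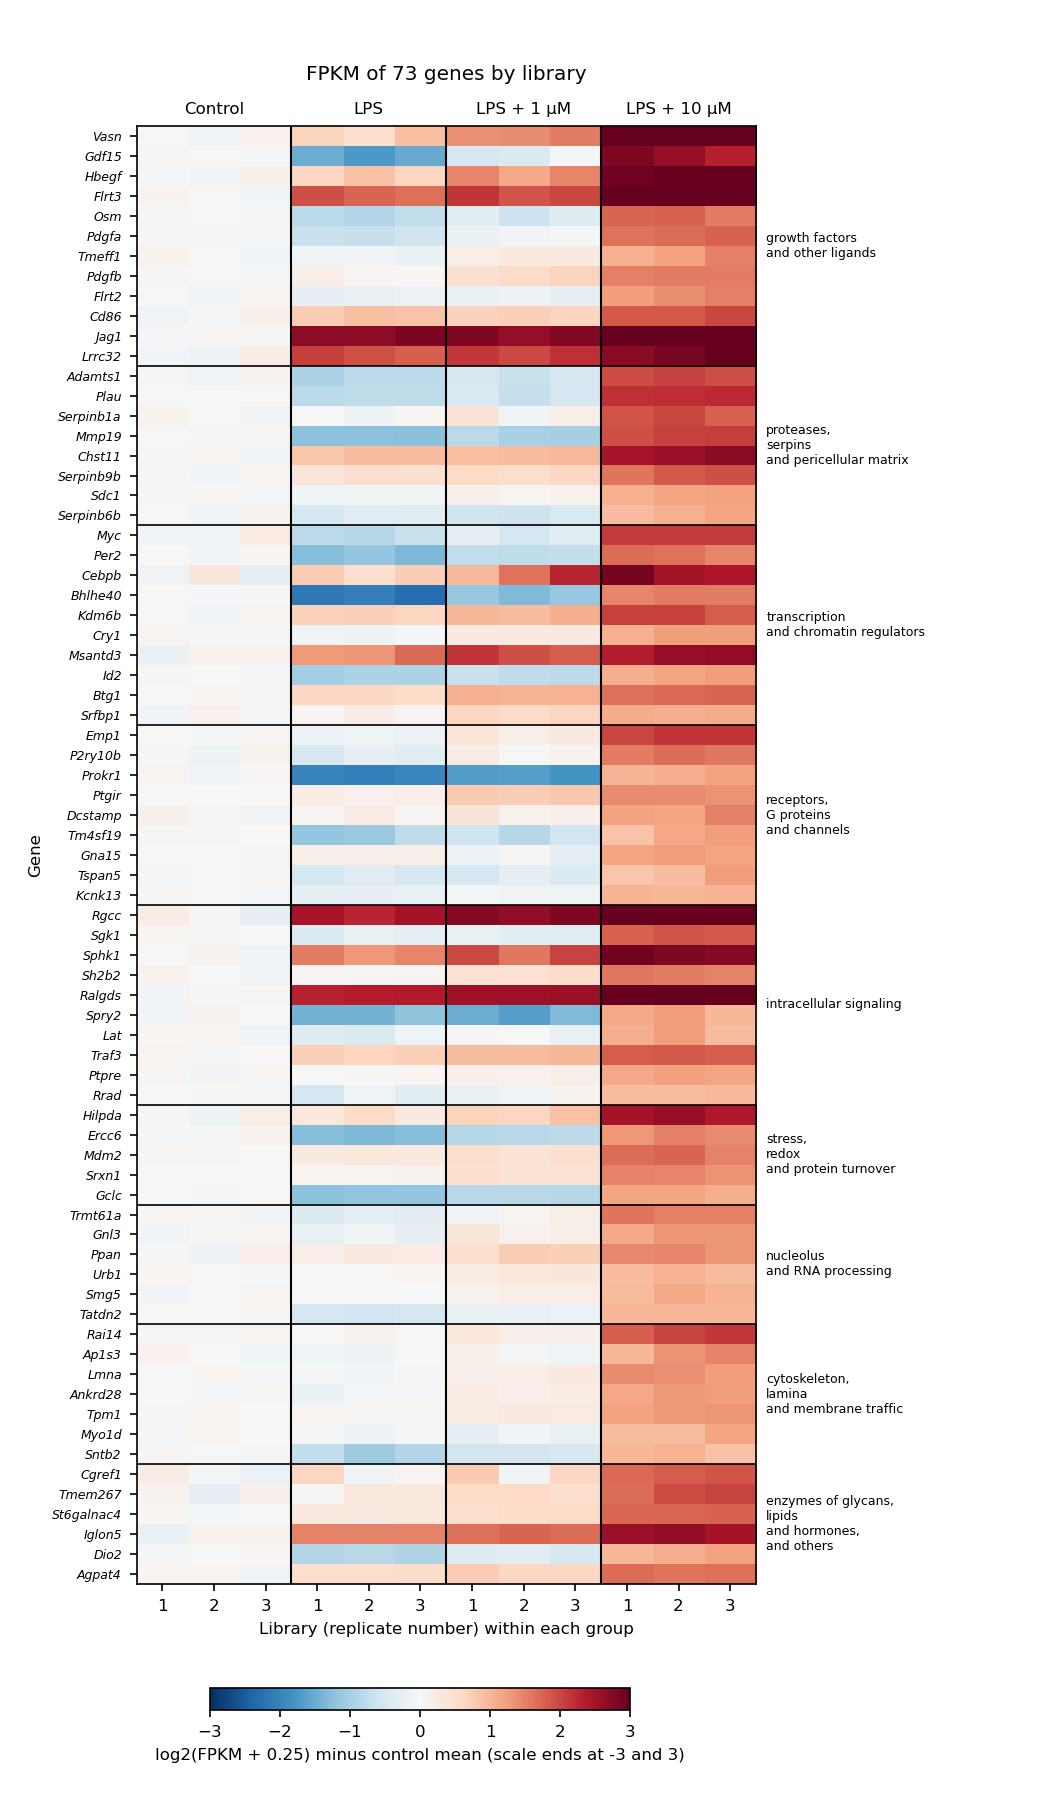
Log2(FPKM + 0.25) of 73 of the 76 genes (rows, grouped by role) in the 12 libraries (columns), minus the control mean of the gene, with red above and blue below control. All 73 rows are red in the 3 libraries with 10 µM, while LPS libraries are red in some rows (Jag1, Rgcc) and blue in others (Bhlhe40, Gdf15).

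The 12 growth factors and other ligands held the 4 largest ratios, within a range of 2.03 to 13.3. Their median ratio of 3.08 was below the 3.72 of the proteases, serpins and matrix genes. Vasn encodes vasorin, a membrane protein that binds TGF-β. Vasn was at 0.0512, 0.0283 and 0.0781 FPKM in control, 0.233, 0.185 and 0.314 with LPS, 0.533, 0.556 and 0.621 with 1 µM, and 2.86, 3.38 and 3.48 with 10 µM. The 4 groups did not overlap and stood in this order, although the control and LPS levels were near the lower end of what was measured. Gdf15, a stress-induced member of the TGF-β family, was at 28.4, 27.9 and 27.0 FPKM in control, 9.80, 8.28 and 9.54 with LPS, 19.6, 20.8 and 27.2 with 1 µM, and 196, 172 and 140 with 10 µM. Gdf15 was thus lowest with LPS alone, and of its 1 µM libraries, all above LPS, only replicate 3 reached the control range.

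Hbegf, a ligand of the EGF receptor, stood at 0.391, 0.381 and 0.493 FPKM in control, 0.783, 0.980 and 0.791 with LPS, 1.60, 1.23 and 1.60 with 1 µM, and 4.82, 5.40 and 5.27 with 10 µM. Each step up left the groups without overlap. Osm, the IL-6 family cytokine oncostatin M, was at 3.83, 3.93 and 4.03 FPKM in control, 2.14, 2.02 and 2.26 with LPS, 3.13, 2.48 and 2.98 with 1 µM, and 13.8, 13.9 and 11.8 with 10 µM. Osm with 1 µM lay between the LPS and control libraries. The platelet-derived growth factor genes Pdgfa and Pdgfb had means of 23.3 ± 1.15 and 57.1 ± 0.987 FPKM with 10 µM against 4.36 ± 0.141 and 21.1 ± 1.17 with LPS (SD, n = 3).

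The Notch ligand gene Jag1 and Lrrc32, whose product GARP holds latent TGF-β at the cell surface, showed another course. LPS alone raised Jag1 from 1.59 ± 0.0766 to 12 ± 0.802 FPKM, 1 µM left it at 12.1 ± 0.666, and 10 µM gave 25 ± 1.20 (SD, n = 3). Lrrc32 went from 0.336 ± 0.0837 in control to 1.95 ± 0.221 with LPS and 3.98 ± 0.463 with 10 µM. Flrt3 and Flrt2, leucine-rich membrane proteins that bind guidance receptors, differed in their start. Flrt3 was at 0.0324 ± 0.0176 FPKM in control and 4.18 ± 0.227 with 10 µM, and Flrt2 at 4.92 ± 0.25 and 13.3 ± 1.19. Cd86, a costimulatory ligand of T cells, had 4.12 ± 0.114 FPKM with 1 µM, 4.59 ± 0.242 with LPS and 9.82 ± 0.646 with 10 µM, and Tmeff1, a membrane protein with an EGF-like domain, 2.40 ± 0.439 with 10 µM.

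**Figure D3:**
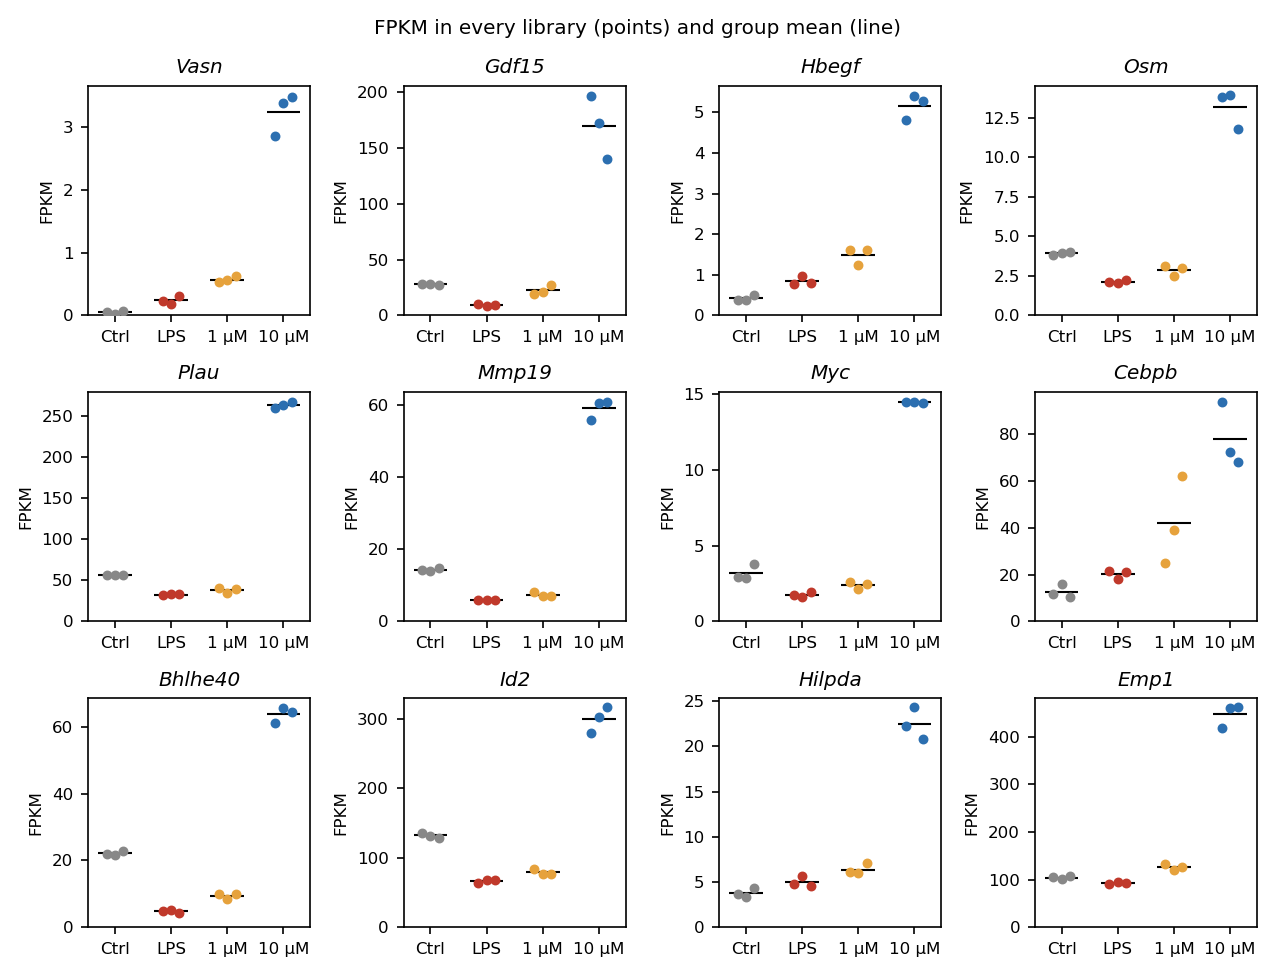
FPKM (y axes, each from 0) of 12 members in the 3 libraries (points) of control, LPS, LPS + 1 µM and LPS + 10 µM, with lines at the group means. In each panel the 3 libraries with 10 µM lie above the control and LPS libraries, from 2.86 to 3.48 FPKM for Vasn to 419 to 463 for Emp1.

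The 8 proteases, serpins and genes of the pericellular matrix had ratios of 2.12 to 4.73. Plau, which encodes the urokinase plasminogen activator, was at 56.3, 55.8 and 56.3 FPKM in control, 32.0, 33.0 and 32.8 with LPS, 40.8, 34.6 and 39.7 with 1 µM, and 259, 263 and 267 with 10 µM. The 1 µM libraries stayed below every control library although above every LPS library. Mmp19, a matrix metalloproteinase, was at 14.3, 14.1 and 14.7 FPKM in control, 5.96, 5.97 and 5.86 with LPS, 8.14, 7.19 and 7.03 with 1 µM, and 55.9, 60.6 and 60.9 with 10 µM. Mmp19 followed the same order of groups as Plau. Adamts1, a secreted protease that cleaves proteoglycans, had 0.412 ± 0.0420 FPKM with LPS and 4.46 ± 0.227 with 10 µM. Sdc1, the cell-surface proteoglycan syndecan, was at 32.7 ± 1.60 FPKM with 10 µM, and Chst11, an enzyme that sulfates chondroitin, at 20.5 ± 1.61 (SD, n = 3).

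Serpinb1a, an inhibitor of neutrophil serine proteases, had 1.26 ± 0.110 FPKM with LPS and 5.49 ± 0.457 with 10 µM. Serpinb6b and Serpinb9b, of the same clade of intracellular serpins, had means of 13.9 ± 1.25 and 13.3 ± 1.49 FPKM with 10 µM. The 3 serpin genes lie on chromosome 13, with 103605 bases between Serpinb1a and Serpinb6b and 48347 between Serpinb6b and Serpinb9b. Serpins of this clade are close in sequence, so the split of reads between them is uncertain. Msantd3 and Tmeff1 on chromosome 4 were the nearest pair, with 19179 bases between them.

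The 10 transcription and chromatin regulators included several repressors. Bhlhe40, a basic helix-loop-helix repressor, was at 22, 21.5 and 22.8 FPKM in control, 4.78, 5.13 and 4.36 with LPS, 9.92, 8.64 and 9.86 with 1 µM, and 61.1, 65.5 and 64.3 with 10 µM. LPS alone thus left the lowest level, and no groups overlapped. Myc, a growth-promoting transcription factor, was at 2.95, 2.89 and 3.80 FPKM in control, 1.74, 1.64 and 1.93 with LPS, 2.61, 2.14 and 2.47 with 1 µM, and 14.5, 14.5 and 14.4 with 10 µM. The 3 libraries with 10 µM hardly differed in Myc. Id2, which blocks helix-loop-helix factors, had 132 ± 3.43 FPKM in control, 67.0 ± 2.46 with LPS, 78.9 ± 3.77 with 1 µM and 300 ± 18.7 with 10 µM (SD, n = 3).

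Cebpb, a bZIP factor of inflammatory and stress responses, had the largest limma standard error of the members, at 0.25 on the log2 scale. Cebpb was at 11.7, 16 and 10.6 FPKM in control, 21.5, 18.0 and 21.0 with LPS, 25, 39.1 and 62.3 with 1 µM, and 94.0, 72.4 and 68.2 with 10 µM. The 1 µM libraries spanned most of the distance between the LPS and 10 µM libraries. The clock repressors Per2 and Cry1 had 2.18 ± 0.187 and 6.48 ± 0.488 FPKM with 10 µM, against 0.0877 ± 0.0226 and 2.46 ± 0.107 with LPS. Kdm6b, a demethylase of histone H3, went from 4.60 ± 0.0940 FPKM with LPS to 11.6 ± 1.10, and Btg1, an antiproliferative factor, from 26.6 ± 0.728 to 57.4 ± 1.96 (SD, n = 3). Srfbp1, which binds serum response factor, and Msantd3 completed the group with 9.38 ± 0.134 and 5.39 ± 0.638 FPKM with 10 µM.

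Of 6 genes of stress, redox balance and protein turnover, Hilpda had the largest ratio. Hilpda, a lipid droplet protein induced by hypoxia, was at 3.66, 3.35 and 4.32 FPKM in control, 4.76, 5.70 and 4.60 with LPS, 6.10, 5.97 and 7.12 with 1 µM, and 22.3, 24.3 and 20.8 with 10 µM. In Hilpda the control and LPS libraries lay close together. The antioxidant genes Srxn1 (sulfiredoxin) and Gclc (a subunit of the first enzyme of glutathione synthesis) had 210 ± 11.6 and 24.0 ± 1.05 FPKM with 10 µM. Mdm2, the ubiquitin ligase of p53, had 140 ± 12.1 and Ercc6, a DNA repair factor, 10.0 ± 0.768 FPKM.

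Among 10 receptors, G proteins and channels, Emp1, a membrane protein of the tetraspan type, was the most abundant. Emp1 was at 106, 101 and 107 FPKM in control, 91.9, 95.7 and 92.8 with LPS, 134, 120 and 126 with 1 µM, and 419, 460 and 463 with 10 µM. Its 1 µM libraries lay above both control and LPS. Ptgir, the prostacyclin receptor, was at 4.68, 4.66 and 4.76 FPKM in control, 5.52, 5.14 and 5.46 with LPS, 8.32, 8.0 and 8.42 with 1 µM, and 13, 12.9 and 12.3 with 10 µM. In Ptgir the 1 µM libraries stood between the LPS and 10 µM libraries, without overlap. Prokr1, a prokineticin receptor, fell with LPS from 1.13 ± 0.105 to 0.0946 ± 0.0100 FPKM and was at 2.72 ± 0.215 with 10 µM. A further 6 were the lipid receptor gene P2ry10b, the tandem-pore potassium channel gene Kcnk13, Dcstamp, which macrophages need to fuse, the tetraspanin gene Tspan5, Tm4sf19 and Gna15, and they had means of 6.70 to 25.3 FPKM with 10 µM.

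The 10 intracellular signaling genes had ratios of 2.1 to 4.13. Sgk1, a kinase controlled by serum and glucocorticoids, was at 29.4, 27.3 and 28.5 FPKM in control, 21.3, 24.4 and 23.5 with LPS, 24.8, 22.7 and 22.5 with 1 µM, and 96.9, 106 and 103 with 10 µM. The LPS and 1 µM libraries overlapped in Sgk1. Ralgds, an exchange factor of the small GTPase Ral, was raised by LPS alone from 6.60 ± 0.311 to 34.5 ± 0.632 FPKM and was at 96.2 ± 5.51 with 10 µM (SD, n = 3). Rgcc, a regulator of the cell cycle, went from 0.887 ± 0.180 to 5.79 ± 0.50 and then 23.9 ± 2.85 FPKM in these groups. Spry2, an inhibitor of receptor tyrosine kinase signaling, instead fell with LPS from 1.78 ± 0.139 to 0.548 ± 0.0682 FPKM, and was at 4.20 ± 0.408 with 10 µM. Ptpre (a tyrosine phosphatase), Sh2b2 (an adaptor of insulin receptor signaling), Traf3 (an adaptor of TNF receptor and TLR signaling), Rrad (a Ras-related GTPase), Sphk1 (a kinase of sphingosine) and Lat had means of 2.55 to 61.3 FPKM with 10 µM. Lat is best known as an adaptor of T cells. The T, B and NK cell markers were near the lower end of measurement, with 12 of 15 measured and 2 tested. Their summed level was 2.41 to 3.78 FPKM over all 12 libraries. Lat itself had means of 1.41 FPKM with LPS and 4.18 with 10 µM. The part of such cells in the Lat level was not tested.

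Ratios were lower in the 6 nucleolar and RNA-processing genes (Tatdn2, Gnl3, Smg5, Ppan, Trmt61a and Urb1), at 2.00 to 3.13. Gnl3 (nucleostemin) had 7.82 ± 0.511 FPKM with LPS and 21.8 ± 1.66 with 10 µM, and Trmt61a, a tRNA methyltransferase, 1.70 ± 0.0890 and 6.94 ± 0.283 (SD, n = 3). Ppan and Urb1 act in assembly of the large ribosomal subunit, and Smg5 in nonsense-mediated decay of mRNA. Of the 8 genes of the cytoskeleton, nuclear lamina and membrane traffic, Lmna, which encodes lamins A and C, was at 120, 126 and 117 FPKM in control, 116, 114 and 118 with LPS, 134, 138 and 147 with 1 µM, and 321, 313 and 289 with 10 µM. The control and LPS libraries overlapped in Lmna, and the 1 µM libraries lay above both. Tpm1 (tropomyosin) and Rai14, an actin-associated protein, had 89.7 ± 3.97 and 19.6 ± 2.26 FPKM with 10 µM, and Ankrd28, the syntrophin gene Sntb2, the clathrin adaptor gene Ap1s3 and the myosin gene Myo1d had means of 2.35 to 29.4. The last 6 members were the sialyltransferase gene St6galnac4, the acyltransferase gene Agpat4, the thyroid hormone deiodinase gene Dio2, Tmem267, Cgref1 and Iglon5, which had means of 2.09 to 34.9 FPKM.

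The 1 µM libraries took no part in the choice, but the LPS libraries they were compared with did. The choice kept genes with low LPS means relative to the higher concentration, which favours higher over lower calls with 1 µM against LPS. The calls and adjusted p-values below therefore describe the members and are no independent test of them. The size of this effect was not tested. With 1 µM, 6 of 76 members (7.89%, against 0.495% of tested genes) were higher than with LPS alone (limma). The log2 fold changes were 1.26 (SE 0.12, adjusted p = 5.8e-05) in Gdf15, 0.96 (SE 0.06, adjusted p = 8.2e-06) in Bhlhe40, and 0.96 (SE 0.25, adjusted p = 0.0195) in Cebpb. They were 0.74 (SE 0.12, adjusted p = 0.00147) in Vasn, 0.65 (SE 0.11, adjusted p = 0.00184) in Hbegf and 0.60 (SE 0.04, adjusted p = 1.1e-05) in Ptgir. In each of the 6, all 3 libraries with 1 µM lay above all 3 with LPS. In build GRCm38.p6 these genes lie at chr8:70629393-70632470 (Gdf15), chr6:108660629-108666925 (Bhlhe40), chr2:167688915-167690432 (Cebpb), chr16:4639945-4651166 (Vasn), chr18:36504927-36515805 (Hbegf) and chr7:16906490-16910905 (Ptgir). The Cebpb call was lost without LPS replicate 2 (log2 fold change 0.88, adjusted p = 0.0662), without 1 µM replicate 2 (0.97, 0.0504), without 1 µM replicate 3 (0.63, 0.0602) and without the filter on low values (0.96, 0.0807). The Ptgir change sat at the fold limit of 0.585 and was under it without LPS replicate 2 (0.57), without 1 µM replicate 3 (0.58), with TPM (0.58), with median-ratio scaling (0.53), with quantile normalization (0.49) and with a pseudocount of 1 (0.54). The Hbegf change was under the limit with a pseudocount of 1 (0.42) and with quantile normalization (0.57), and the Vasn change with a pseudocount of 1 (0.34). The Gdf15 and Bhlhe40 calls held under all alternatives run.

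Lower calls with 1 µM than with LPS were made less likely by the choice of genes with low LPS means. They were made by limma for 0 of 76 members, against 0.625% of tested genes. The count of members stayed at 0 at an unadjusted p under 0.05 with the fold limit kept. With no fold minimum, 47 members were higher (61.8%, against 14.6%) and 1 (1.32%, against 4.36%), Gna15, was lower, with a log2 fold change of -0.30 (SE 0.07, adjusted p = 0.00834). Gna15 encodes a G protein α subunit of blood cells. Every 1 µM library lay above every LPS library in 56 members (73.7%), against 30.2% of tested genes, and the mean was higher in 70. The median log2 fold change of the members was 0.29, and that of all tested genes 0.06.

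**Figure D4:**
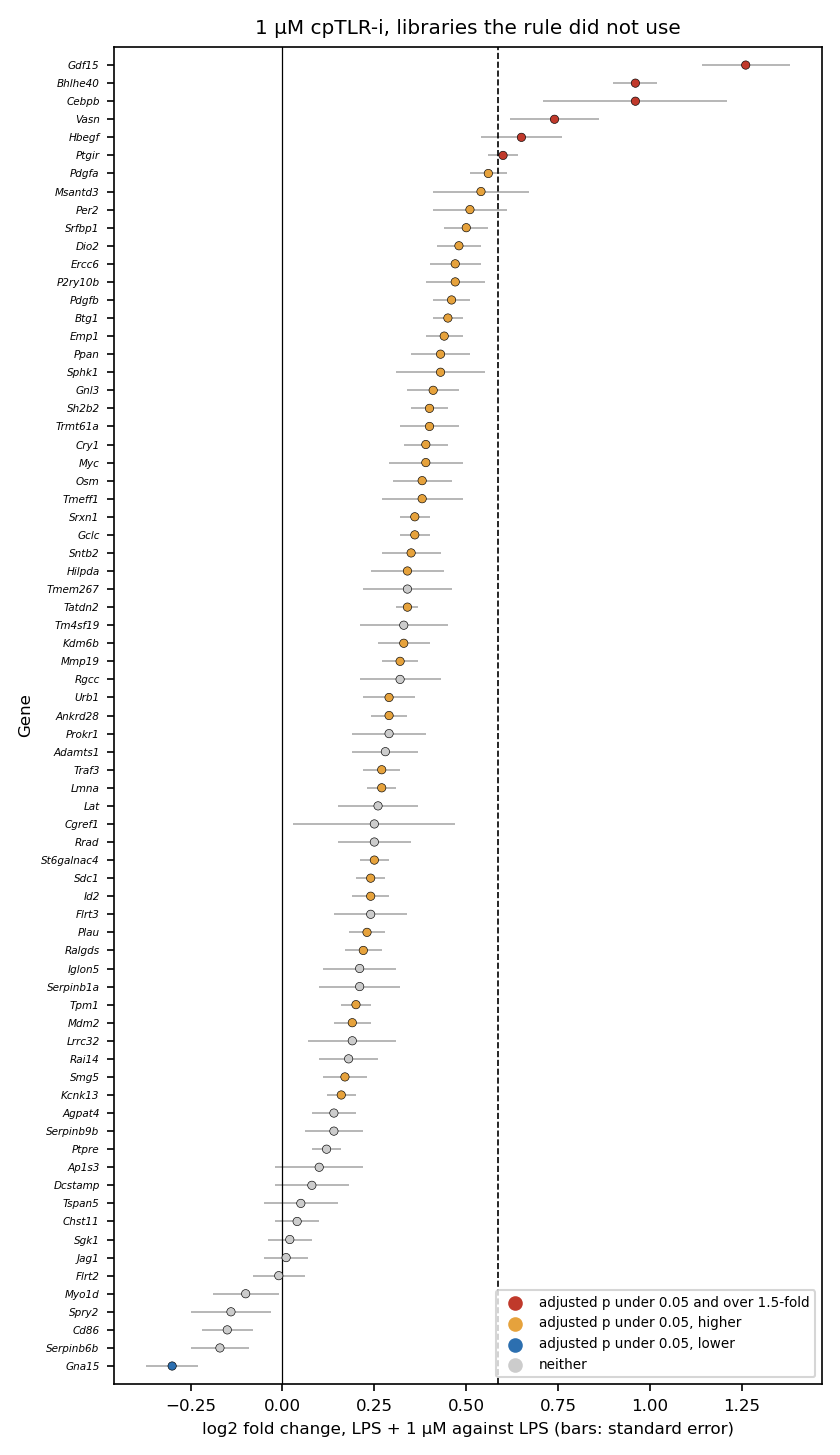
Log2 fold change (x axis) of LPS + 1 µM against LPS for 73 of the 76 genes (y axis), with limma standard errors as bars and a dashed line at 1.5-fold. The 6 genes called with the fold limit (red) run from 0.60 to 1.26, 39 more with an adjusted p under 0.05 (orange) lie below the dashed line, and Gna15 (blue) is the only gene shown that was lower at that threshold.

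The choice also used the control means, which favours higher over lower calls relative to control, so these calls describe the members only. Relative to control, 22 members (28.9%, against 10.9% of tested genes) were higher with 1 µM and 9 (11.8%, against 31.3%) were lower. This split also moved with the scaling, to 34 higher and 3 lower with median-ratio scaling and 34 and 6 with quantile normalization. With no fold minimum, 40 members were higher (52.6%, against 18.8%) and 22 lower (28.9%, against 64.3%). The 9 lower members were Bhlhe40, Ercc6, Gclc, Id2, Mmp19, Per2, Prokr1, Spry2 and Tm4sf19. With median-ratio scaling only Bhlhe40, Prokr1 and Spry2 kept this call. Ercc6, Gclc, Id2, Mmp19, Per2 and Tm4sf19 then fell short of the fold limit, with log2 fold changes of -0.34 to -0.58. Cebpb, Hbegf, Ptgir and Vasn were higher with 1 µM than with both LPS and control.

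The 1 µM level was placed between the LPS and 10 µM levels of each member, a distance that the choice had selected to be large. This share, the 1 µM mean minus the LPS mean over the 10 µM mean minus the LPS mean in FPKM, had a median of 9.68% with quartiles of 5.02% and 14.5%. On the log2(FPKM + 0.25) scale the median was 17.7%. The 3 libraries with 1 µM gave medians of 9.60%, 7.40% and 10.5%. The share exceeded 25% in Srfbp1 (42.6%), Ptgir (39.0%), Msantd3 (38.0%), Cebpb (37.9%), Btg1 (31.9%) and Ppan (27.7%), and was below 0 in Cd86, Flrt2, Gna15, Myo1d, Serpinb6b and Spry2. By role, the median share was 19.2% in transcription and chromatin regulators and 16.6% in nucleolar and RNA-processing genes. All 10 and all 6 of these were higher with 1 µM when no fold minimum was set. So were all 6 genes of stress, redox balance and protein turnover, although their median share was 8.58%. The median share was 3.18% in proteases, serpins and matrix genes, of which 3 of 8 were higher by that measure. These differences between roles, which were drawn up after the members were known, were not tested. The 10 µM mean was 1.41 to 15.8 times the 1 µM mean, and at least 2 times in 61 members.

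Pathway lists place the members among their neighbours, each compared between 10 µM and LPS, where 21.5% of tested genes were higher, 9.44% were lower and the median log2 fold change was 0.22. Against control, 8.57% were higher, 17.1% were lower and the median was -0.17. Members on these lists, and genes that met the limits but were removed by symbol, count as higher by choice. Of 22 tested genes of the integrated stress response, 14 were higher and 3 lower (median 0.98), with Gdf15 and Cebpb as members and 2 others removed by symbol. Against control 12 were higher and 3 lower (median 0.82). Of 39 immediate early genes, 24 were higher and 3 lower (median 0.81), with Btg1 and Myc as members and 10 others removed by symbol, and against control 31 were higher and 0 lower (median 1.55). Of 15 ERK feedback inhibitors, which include Spry2 and 3 genes removed by symbol, 9 were higher and 3 lower (median 0.97), and 12 were higher and 1 lower than control (median 1.13). Of 19 TGF-β, BMP and SMAD targets, which include Id2 and Bhlhe40, 11 were higher and 1 lower (median 0.86), but against control 6 were higher and 4 lower (median 0.03). Of 23 p53 targets, which include Mdm2, Gdf15 and 2 genes removed by symbol, 14 were higher and 5 lower (median 1.01), and 8 were higher and 6 lower than control (median 0.38).

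Other lists had medians of 0.52 or less against LPS. Of 17 NRF2 targets, 6 were higher and 1 lower (median 0.38, members Gclc and Srxn1), and of 22 genes of hypoxia and glycolysis, 9 were higher and 2 lower (median 0.43, member Hilpda). Of 14 growth factors, 6 were higher and 3 lower (median 0.45), and 5 of the 6 were members: Hbegf, Pdgfa, Pdgfb, Osm and Gdf15. Of 23 cAMP targets, 11 were higher and 4 lower (median 0.52). None was a member, while Nr4a1, Dusp1 and Fosb met the limits and were removed by symbol. Heat shock genes (3 higher and 4 lower of 16), the unfolded protein response (1 and 0 of 15) and SRF, MRTF and YAP targets (2 and 4 of 15, with Tpm1 higher) gave medians of 0.28, 0.14 and -0.03. Against control, the medians were 0.43 for NRF2 targets (7 higher and 0 lower), 0.09 for hypoxia and glycolysis (5 and 2), 1.20 for growth factors (9 and 1), 0.59 for cAMP targets (12 and 4), 0.39 for heat shock (5 and 0), -0.10 for the unfolded protein response (2 and 0) and 0.37 for SRF, MRTF and YAP targets (6 and 0).

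Markers of macrophages and of other cells were compared in the same way. The 20 macrophage identity genes summed to 28791 to 29422 FPKM in control, 23825 to 24186 with LPS and 24255 to 24806 with 10 µM. With 10 µM, 3 were higher and 2 lower than with LPS. Relative to control, 2 were higher and 4 lower with 10 µM (median -0.26). Of 12 neutrophil markers, 9 were tested and 3 (Elane, Mpo and Prtn3) were higher with 10 µM than with LPS, and 7 were higher and 1 lower with 10 µM than in control (median 1.18). The summed level of the 12 was 48.5 to 54.2 FPKM in control, 59.2 to 60.4 with LPS, 53.6 to 57.7 with 1 µM and 59.0 to 70.6 with 10 µM. Their part in the levels of the members was not tested.

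Gene structure was compared by medians, with no test. The median gene span was 21872 bases in the members and 22513 in tested protein-coding genes, the median exon number 7 and 9, and the median number of RefSeq transcripts 3 and 3. Chromosome 12 held 8 members and chromosome 10 held 7, where 3.47% and 4.80% of tested protein-coding genes lie. Chromosomes 2 and 14 held 6 each, with 8.10% and 3.36% of these genes. Chromosomes 6, 7 and 16 held 5 each, with 4.64%, 7.61% and 3.06%. The highest of the 10 µM libraries was replicate 3 in 35 members, replicate 2 in 27 and replicate 1 in 14.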

How the data were processed

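Wild-type BMDMs were measured by RNA-seq in 12 libraries (4 groups of 3, taken from the labels). According to the submitters' processing notes, alignment to mm10 was done with HISAT2 and transcripts were assembled with StringTie. These steps yielded the deposited FPKM values of 23959 genes. The TPM values, deposited in the same table, were made by the authors in the same steps and served as an alternative. The table used here holds no counts, so the DESeq2 test named in the study's methods was not run, and depth per library is unknown. FPKM is relative to the library total.

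Group means were compared on log2(FPKM + 0.25) with limma 3.58.1 in R 4.3.3 (lmFit and trended eBayes). A single fit took in all 12 libraries, contrasts were two-sided, and p-values were adjusted over 12315 genes. The fit was tested on simulated data. Python 3.11.15 (pandas 2.3.3, matplotlib 3.10.9) was used for tables and plots. The members, gene lists and tests were chosen with earlier results of these data known. The genes to be named were the 15 members with the highest mean FPKM with 10 µM, the 15 with the largest ratio to the larger of LPS and control, members on a gene list, members called between 1 µM and LPS, the 5 genes just inside and the 5 just outside the limits, and members named in the study (Osm and Gdf15). All other members were named after their values were seen, and the roles were assigned then as well. Promoters came from RefSeq (GRCm38.p6). Alternatives were TPM, other pseudocounts, filters, scalings, thresholds, a replicate block and leaving out each library. Of the 76 members, 3 are included in all counts and medians but are not reported by name here.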

Additional observations from a re-analysis of the deposited data

How the results depend on the processing

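Most alternatives left the counts of members within 1.5 times of those reported. With a pseudocount of 1, 3 members were higher with 1 µM than with LPS, and with no fold minimum 47 were higher and 1 lower. Against control with no fold minimum, 40 members were higher and 22 lower with 1 µM, and 26 higher and 31 lower with LPS, with the shares of all genes as given above. Median-ratio scaling gave 34 higher and 3 lower with 1 µM than control and 9 lower with LPS, and quantile normalization gave 34 higher with 1 µM and 26 higher with LPS. The balance of LPS calls thus turned, from 17 higher and 18 lower to 25 and 9 or 26 and 12. The cause was not tested. Limits of 1.5-fold and 3-fold in place of 2-fold gave 239 and 26 members. Median-ratio scaling gave 76 members, of which 61 were shared with the reported ones, and TPM gave 94, of which 74 were shared. On the log2 scale the median share reached with 1 µM was 17.7%. Leaving out 1 library at a time gave 4 to 7 members higher and 0 lower with 1 µM than LPS, 22 to 24 higher and 9 to 11 lower than control, 15 to 17 higher and 18 lower with LPS than control, 75 to 83 members, and a share of 9.01% to 10.3%. With the replicate number as a block, 6 members were higher and 0 lower with 1 µM than LPS. Deviations of 18 same-numbered pairs of libraries correlated at -0.165 to 0.153, and those of 36 pairs with different numbers at -0.17 to 0.197. No shared effect of the replicate number was thus seen, but this check cannot show whether the libraries were paired. The unknown depth limits the least abundant members, such as Vasn and Flrt3 in control.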

Other observations

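The same limits were applied to genes that are not protein-coding, and 21 of these had a mean of at least 2 FPKM with 10 µM that was at least 2 times the LPS and control means. Of the 21, 16 were small nucleolar RNA (snoRNA) genes, out of 37 snoRNA genes with at least 2 FPKM with 10 µM and 327 in the table. SnoRNAs guide the modification of ribosomal and other RNAs and are mostly cut from the introns of host genes. All 16 lay inside a host gene of the table, 5 of them in Gas5, and 0 lay inside one of the 76 members. The host Gas5 had means of 32.6 FPKM in control, 17.0 with LPS and 34.2 with 10 µM, and so did not itself reach 2 times the control mean. The host Snhg1, itself among the 21, had 7.85 ± 0.932 FPKM in control, 5.50 ± 0.701 with LPS and 15.9 ± 0.638 with 10 µM (SD, n = 3). These snoRNA genes are 60 to 144 bases long, and values of such short features in libraries made from mRNA are uncertain. No test was made because the values chose the genes.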
